A study of Drosophila melanogaster with 6 samples.

Results

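The genes described here are those of the fourth chromosome of Drosophila melanogaster, the small dot chromosome that is packed like heterochromatin along most of its length yet carries active genes. RefSeq's gene table for the Release 6 assembly places 114 genes on it. ATPsynbeta and pho were left out by the rule, which leaves 112 genes, 78 of them protein coding and 34 not. Of these, 64 were measured by a probe set of the array that names 1 gene, all of them protein coding, out of 11983 genes measured in all. The other 14 protein-coding genes, among them RpS3A, pan, lgs, PlexA and CaMKII, and the 34 non-coding genes were not analysed here.

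On the fourth chromosome, histone H3 is methylated by the methyltransferase Setdb1 (egg) with its cofactor windei (wde), and the methylated histone is bound by the heterochromatin protein HP1a. Pof is a protein that binds RNA and coats the active genes of this chromosome. Linker histones sit on the DNA between nucleosomes and help to compact it, and dBigH1 is the linker histone of the early embryo and germ line. The study's question was how dBigH1 affects active chromatin in cells that normally make little of it, and a chromosome that is already compact is one place to read this.

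Gene expression was measured in S2 cells, a Drosophila line derived from late embryos that resembles blood cells, with 1 Affymetrix array per sample. The S2 control group held 3 samples of cells labelled wild type, and the dBigH1-induced group held 3 samples of S2 cells carrying dBigH1::FLAG, which had been kept under hygromycin B and were grown without it for the experiment. All 6 samples had 1 mM copper sulphate for 24 h, so both groups share the inducer and any response to it. The labels do not say whether the dBigH1 line is 1 clone or whether replicates are separate cultures. The groups also differ in transgene and drug selection, and these cannot be told apart from dBigH1 itself.

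BigH1 read 4.86, 5.42 and 5.30 on the S2 control arrays and 13.47, 13.47 and 13.43 on the induced arrays, in log2 signal, so the labels and the induced gene match. All 10 listed S2 and blood cell markers were measured, with mean log2 signals of 6.68 to 12.43 in S2 control and 6.33 to 12.90 in induced cells. Of these, 5 rose, 3 fell and 2 did not pass, where 14.5% of all measured genes rose and 16.0% fell. Their log2 changes ran from -1.09 for Sr-CI to 0.65 for Pxn. All 10 lay above the median signal of the tested probe sets. In a fit limited to probe sets above that median, 25.6% of genes rose and 24.9% fell. The 3 measured neuron markers, elav, nSyb and brp, stood between 7.21 and 10.06 in S2 control and between 7.15 and 9.99 in induced cells, and 0 of the 3 passed in limma or at an unadjusted p under 0.05, which 40.3% of all measured genes reached. Of the muscle markers, Mlc2 and up stood between 4.16 and 5.68 in S2 control, and of the germline markers bam rose by 0.62 and aub fell by 0.62 on the log2 scale. The normalised values have no zero, so no marker could be read as absent. In bulk samples like these, fewer cells of a type and less RNA per cell cannot be told apart. The 5′ minus 3′ log2 signal of the Act5C control probe sets was -1.26 ± 0.087 (SD, n = 3) in S2 control. In induced cells it was -1.79 ± 0.078 (n = 3). That of the newer GAPDH set was -1.92 ± 0.044 and -1.73 ± 0.049 (n = 3 each). Between the group means, the older control pairs differed less. Induced minus S2 control was 0.03 for actin, -0.08 for GAPDH, -0.08 for eIF-4a and -0.04 for 18S rRNA. The older actin and GAPDH pairs thus went the opposite way from the Act5C pair and the newer GAPDH pair. Of these older pairs, only the arrays of GAPDH did not overlap between groups. The part of these signs of RNA quality in the results that follow was not tested.

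The main comparison asked how the genes of the fourth chromosome stood in induced cells against S2 control. Of the 64 measured genes, 16 fell, 6 rose and 42 did not pass (limma, Benjamini-Hochberg adjusted over all 18769 tested probe sets, threshold 0.05). The background over all measured genes was 16.0% that fell and 14.5% that rose, 30.5% together. On the fourth chromosome these shares were 25.0% that fell, 9.38% that rose and 34.4% together. The overall share that passed was thus close to the background, and the split between directions leaned to falls. The changes were small. The largest fall was that of ey, at 1.70-fold, the largest rise that of Mpv17, at 1.34-fold, and the median over the 64 genes was a log2 change of -0.02, against -0.01 over all measured genes. The number of genes that rose was 3 without induced replicate 1, and 3 to 7 over all single arrays left out in turn. The number that fell was 11 to 20.

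**Figure D1:**
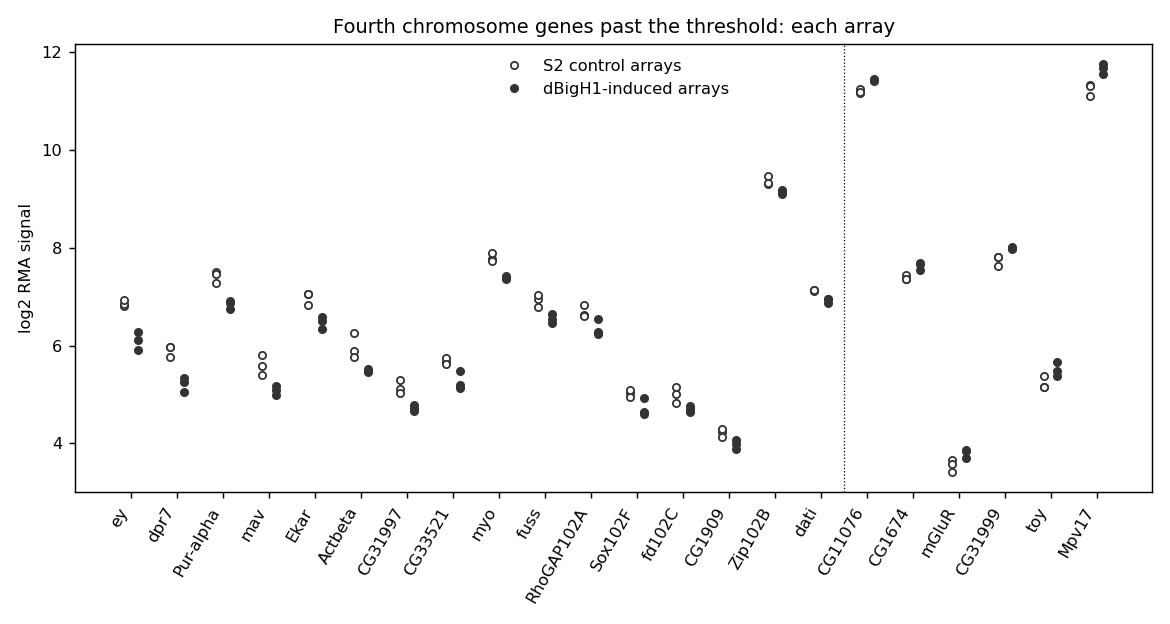
Log2 signal on each array for the 22 genes of the fourth chromosome past the threshold, ordered by log2 change, with S2 control arrays as open circles and dBigH1-induced arrays as filled circles (n = 3 each). The 16 genes left of the dotted line fell and the 6 right of it rose. Control and induced arrays are apart for each of the 22, as for 45.4% of all measured genes. The 22 were picked on these same arrays, so the separation adds no support to their calls.

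Genes for transcription factors were taken first, since the fourth chromosome carries several regulators of development. Of 12 measured members of a list of 14, 5 fell, 1 rose and 6 did not pass, with a median log2 change of -0.09. Of all measured genes 16.0% fell and 14.5% rose. The gene eyeless (ey), a Pax6 gene that directs eye development, fell most of all genes on the chromosome. It read 6.82, 6.84 and 6.94 in S2 control and 6.12, 6.28 and 5.90 in induced cells, a log2 change of -0.77 (SE 0.09, adjusted p = 0.000165 in limma). Every induced array lay below every control array, by a gap wider than the range within either group. Its sister gene twin of eyeless (toy), which acts upstream of ey in the fly eye, read 5.15, 5.16 and 5.38 in S2 control and 5.66, 5.39 and 5.48 in induced cells. It rose by 0.28 (SE 0.08, adjusted p = 0.0341 in limma), and the highest control array nearly touched the lowest induced one. This call is weak. It was lost without S2 control replicate 1 (adjusted p = 0.105), S2 control replicate 2 (0.110), induced replicate 1 (0.116) or induced replicate 3 (0.0670) in limma. With array weights the call was lost as well (adjusted p = 0.0552 in limma). The other probe sets of toy, both dimmer, showed -0.06 and -0.03 and did not pass.

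The fussel gene fuss, a relative of the Ski and Sno co-repressors, read 6.80, 6.95 and 7.04 in S2 control and 6.46, 6.64 and 6.54 in induced cells (log2 change -0.38, SE 0.07, adjusted p = 0.00369 in limma). The groups did not overlap. The HMG-box gene Sox102F fell by 0.30 (SE 0.08), the forkhead gene fd102C fell by 0.29 (SE 0.08) and the zinc finger gene dati fell by 0.21 (SE 0.05). Sox102F and fd102C had dim signals, with group means between 4.70 and 5.02. The call of Sox102F was lost without S2 control replicate 1 (adjusted p = 0.0556 in limma), S2 control replicate 3 (0.0772), induced replicate 1 (0.0852) or induced replicate 3 (0.0865). That of fd102C was lost without S2 control replicate 1 (0.0584), S2 control replicate 2 (0.0653), induced replicate 1 (0.0822) or induced replicate 2 (0.0614). That of dati was lost without induced replicate 3 (0.0593), and a dimmer probe set of dati showed 0.17 (adjusted p = 0.0873 in limma). Among those that did not pass were ci, the transcription factor of the Hedgehog pathway, at a log2 change of -0.10 and a mean signal of 4.49, and Mitf at 0.15 and 4.14. The genes zfh2, sv, onecut and NfI had mean signals of 3.31 to 3.67, near the floor of the array, where a change could hardly be seen.

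Ligands, receptors and signalling proteins came next, with 12 of 16 listed genes measured. Of these, 4 fell, 1 rose and 7 did not pass, with a median log2 change of -0.04. Over all measured genes, 16.0% fell and 14.5% rose. The fourth chromosome carries 3 genes for ligands of the TGF-beta family, myo, mav and Actbeta, and all 3 fell. Maverick (mav) read 5.40, 5.59 and 5.80 in S2 control and 5.18, 4.98 and 5.09 in induced cells (log2 change -0.51, SE 0.10, adjusted p = 0.00334 in limma). Activin-beta (Actbeta), a ligand of the activin branch, read 5.89, 6.25 and 5.77 against 5.51, 5.45 and 5.49 (log2 change -0.49, SE 0.11, adjusted p = 0.00707 in limma). Myoglianin (myo), known from muscle and glia, read 7.78, 7.89 and 7.72 against 7.39, 7.42 and 7.37 (log2 change -0.40, SE 0.06, adjusted p = 0.000633 in limma). The groups did not overlap for any of the 3, which was also so for 45.4% of all measured genes. The control arrays of mav and Actbeta were spread more widely than the induced ones. With 1 array left out in turn, and under each other setting that measured them, all 3 kept an adjusted p of at most 0.0243 in limma. Each of the 3 has 1 probe set, so the mean over probe sets could not change its log2 change.

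RhoGAP102A, which encodes a GTPase-activating protein, fell by 0.33 (SE 0.09, adjusted p = 0.0229 in limma). That call was lost without S2 control replicate 2 (adjusted p = 0.0837), induced replicate 2 (0.0843) or induced replicate 3 (0.0755). It was also lost with the mean of its probe sets (adjusted p = 0.0746 in limma), and its dimmer probe set showed -0.15 and did not pass. The metabotropic glutamate receptor gene mGluR read 3.41, 3.67 and 3.58 in S2 control and 3.86, 3.84 and 3.69 in induced cells. It rose by 0.24 (SE 0.08, adjusted p = 0.0391 in limma) at a signal near the floor, and the groups were parted by a narrow margin. Its call was lost without S2 control replicate 1 (0.119), S2 control replicate 3 (0.0699), induced replicate 1 (0.124) or induced replicate 2 (0.117), and with the replicate number as a block (0.0543). The guidance genes showed no call. PlexB, a semaphorin receptor, stood at a log2 change of 0.21 (adjusted p = 0.0537 in limma) with 0.15 to 0.23 on its 3 other probe sets, Ephrin at -0.15 and its receptor gene Eph at 0.07. The adaptor gene Crk stood at -0.14, with groups that did not overlap (adjusted p = 0.0527 in limma).

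Genes of synapses, vesicles, muscle and transport made up a list of 14, of which 12 were measured. Among the 12, 1 fell, 0 rose and 11 did not pass in limma, where 30.5% of all measured genes passed. An unadjusted p under 0.05 was seen for 2 of the 12, against 40.3% of all measured genes. The gene that fell was Zip102B, a zinc transporter of the ZIP family, which read 9.31, 9.47 and 9.33 in S2 control and 9.18, 9.14 and 9.11 in induced cells (log2 change -0.22, SE 0.06, adjusted p = 0.0192 in limma). Its call was lost without induced replicate 2 (0.0579) or induced replicate 3 (0.0711). The synaptic priming gene unc-13 had a bright probe set, at 11.14 ± 0.094 in S2 control (n = 3) against 11.02 ± 0.058 in induced cells (n = 3), and its log2 change of -0.12 did not pass. The projectin gene bt, of the muscle sarcomere, and the synaptotagmin gene Syt7 stood at 3.46 and 3.61 over all arrays, near the floor. The calcium pump gene PMCA, among the 3 brightest members, stood at -0.11 on its brightest probe set, 0.05 on the next and 0.33 (SE 0.05, adjusted p = 0.00127 in limma) on the dimmest, which read 5.40. The ankyrin gene Ank likewise showed 0.04 on its brighter and 0.47 (SE 0.10, adjusted p = 0.00760 in limma) on its dimmer probe set. Both probe sets of Ank are of kinds that can share sequence with other transcripts.

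In the list for RNA, translation, chromatin and protein quality, 7 of 8 genes were measured, and 1 fell, 0 rose and 6 did not pass in limma, while 3 of the 7 had an unadjusted p under 0.05, against 40.3% of all measured genes. Pur-alpha, a protein that binds single-stranded nucleic acids, read 7.29, 7.51 and 7.47 in S2 control and 6.74, 6.88 and 6.91 in induced cells. It fell by 0.58 (SE 0.07, adjusted p = 0.000273 in limma), with no overlap between groups. The translation and silencing genes of the same list did not pass. The translation initiation scaffold eIF4G1, which was among the brightest members, stood at 11.65 ± 0.067 and 11.74 ± 0.057 (n = 3 each) and the microRNA silencing gene gw at 11.00 ± 0.081 and 10.98 ± 0.039. The log2 change was -0.15 for Rad23, which carries ubiquitinated proteins to the proteasome, 0.21 for Gyf, 0.05 for the chromatin cofactor Hcf and 0.01 for the DNA glycosylase Tdg.

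Of the 21 measured genes in none of these lists, 5 fell, 4 rose and 12 did not pass. Over all measured genes, 16.0% fell and 14.5% rose. The gene dpr7, of a family of immunoglobulin-domain surface proteins known from neurons, read 5.96, 5.76 and 5.97 in S2 control and 5.25, 5.33 and 5.04 in induced cells (log2 change -0.69, SE 0.09, adjusted p = 0.000285 in limma). The kainate-type glutamate receptor gene Ekar read 6.83, 7.06 and 7.07 against 6.58, 6.51 and 6.35 (log2 change -0.51, SE 0.08, adjusted p = 0.00130 in limma). Both were lower on every induced array. CG31997 fell by 0.42 (SE 0.07) and CG33521 fell by 0.41 (SE 0.09). The remaining fall, in CG1909, lies outside the rule by which genes were named, was singled out after its values were seen and came at a signal near the floor (fell by 0.25, SE 0.07). Its call was lost without S2 control replicate 1 (adjusted p = 0.0525 in limma), S2 control replicate 2 (0.0624), induced replicate 2 (0.0800) or induced replicate 3 (0.0515).

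The largest rise was that of Mpv17, whose human relative is a protein of the inner mitochondrial membrane. It read 11.33, 11.10 and 11.31 in S2 control and 11.57, 11.68 and 11.76 in induced cells (log2 change 0.42, SE 0.08, adjusted p = 0.00260 in limma). Its neighbour CG11076 read 11.25, 11.17 and 11.20 against 11.43, 11.45 and 11.42 (log2 change 0.23, SE 0.05, adjusted p = 0.00693 in limma). Both were bright, and neither lost its call under any setting tried that measured it. Each has 1 probe set, so the mean over probe sets could not change its log2 change. CG11076 overlaps ATPsynbeta, which the rule left out. Its probe set is of a kind that can share sequence with other transcripts, so the setting without such probe sets did not measure it. The same kind of probe set reads Pur-alpha, myo, CG33521 and CG1909. CG31999 rose by 0.25 (SE 0.06) and CG1674 by 0.24 (SE 0.06). Without induced replicate 1 neither passed (adjusted p = 0.0518 for CG31999 and 0.0505 for CG1674 in limma), nor did CG1674 without induced replicate 2 (0.0588). The dimmer probe set of CG1674 showed -0.11. The RING finger gene Rnf11, whose probe set was the brightest on the chromosome, stood at 12.51 ± 0.11 and 12.52 ± 0.040 (n = 3 each).

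**Figure D2:**
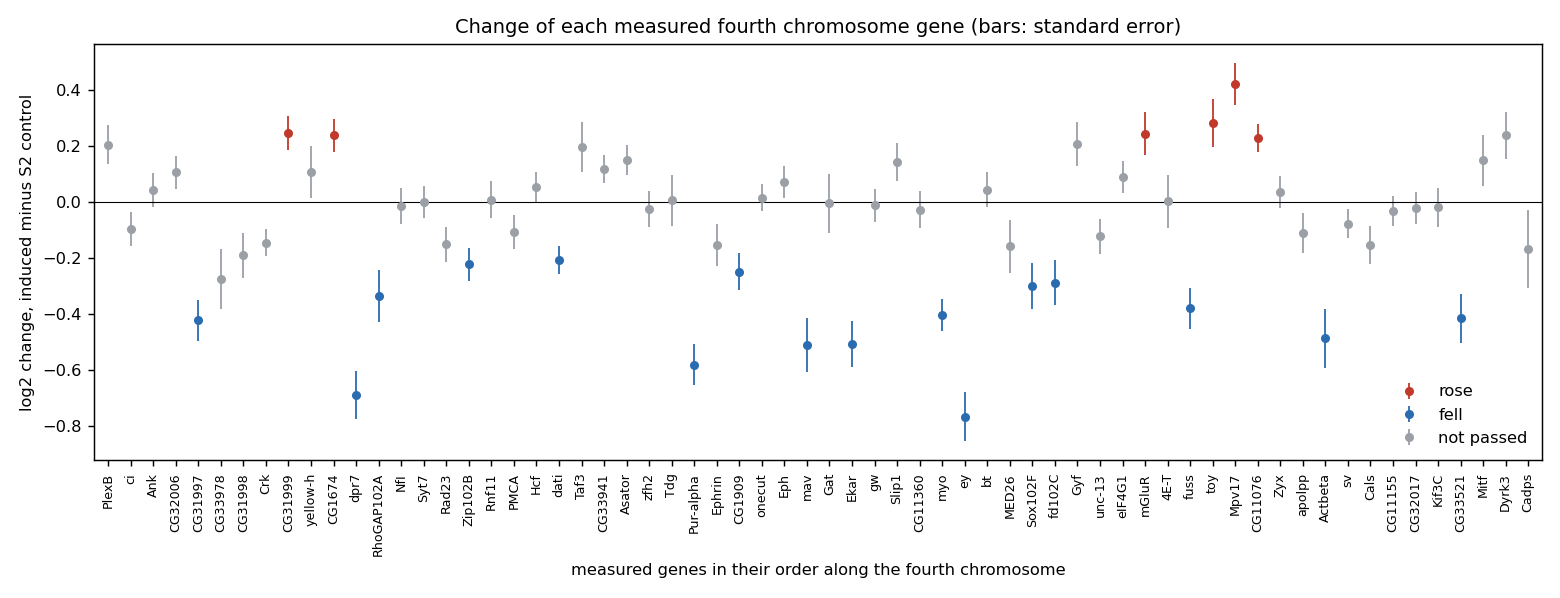
Log2 change (dBigH1-induced minus S2 control, with its standard error) of the 64 measured genes, placed in their order along the fourth chromosome and coloured by whether they rose, fell or did not pass. The 16 falls and 6 rises are scattered among genes that did not pass, and the longest stretch of genes on the same side of 0 has 8 members.

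The order of the genes along the chromosome was looked at next. Of the 63 pairs of measured neighbours, both members passed in 7, or 11.1%, against 11.9% of neighbouring pairs on the chromosome arms 2L, 2R, 3L, 3R and X. Among these 7 pairs 3 fell together, 2 rose together and 2 went opposite ways, CG1674 with dpr7 and fuss with toy. The pairs that fell together were dpr7 with RhoGAP102A, myo with ey, and Sox102F with fd102C. The pairs that rose together were toy with Mpv17, and Mpv17 with CG11076. The longest stretch on the same side of 0 ran from apolpp to CG33521 and held 8 genes with log2 changes of -0.49 to -0.02, of which Actbeta and CG33521 passed. Of the 64 measured genes, 27 overlap another gene of the table, among them CG11076, CG31999, dati, Ekar, fd102C, fuss, Mpv17 and CG33521. How the probe sets treat strand is not given in the sources used here, so signal from an overlapping gene cannot be told apart from that of the named one.

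The chromosome was then set beside the others. The share that fell was 13.1% to 19.3% on the arms 2L, 2R, 3L, 3R and X, and the share that rose was 12.4% to 19.4%. The 25.0% and 9.38% of the fourth chromosome lay outside both ranges, on 64 genes against 1869 to 2972 per arm. Its middle 50% of log2 changes ran from -0.21 to 0.09, against -0.11 to 0.10 for the 11815 genes of the arms together. Of the 64 genes, 5 fell by at least 0.5 and passed, or 7.81% against a background of 4.31%, and 0 rose by as much, against 2.29%. For 27 of the 64, every control array lay on the same side of every induced array, or 42.2%, close to the background of 45.4%. These differences between chromosomes were not tested, and nothing particular to the fourth chromosome is read from them.

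**Figure D3:**
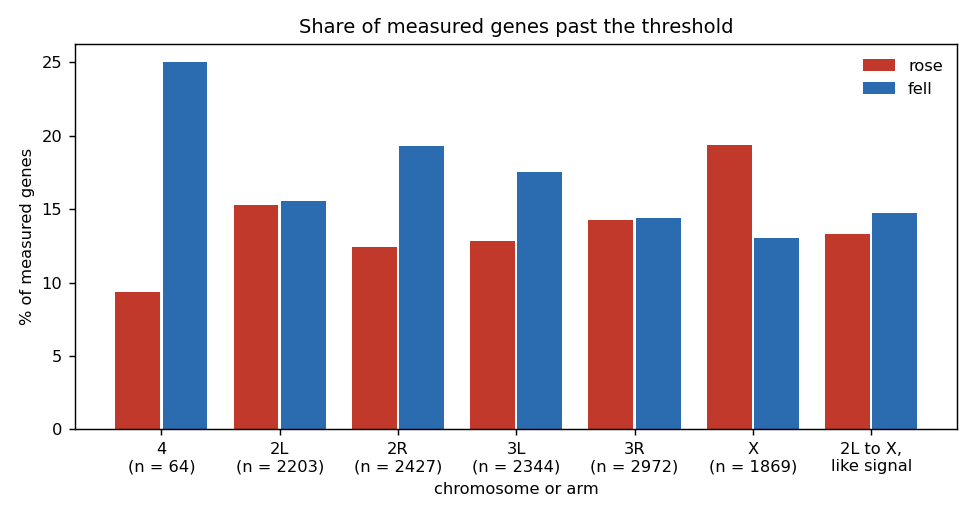
Share of measured genes that rose (red) and fell (blue) in induced cells on the fourth chromosome and on each larger arm, in percent, and, in the last pair of bars, on the arms at the members' mix of signal levels. The fourth chromosome stands at 9.38% and 25.0%, and the genes of like signal at 13.3% and 14.7%.

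Because dim genes pass less often, the comparison was repeated with genes of like mean signal. The measured genes were split by mean signal over the 6 arrays into 10 groups of equal size, and the genes of the 5 arms were weighted by the number of members in each group. At that mix 14.7% fell and 13.3% rose, equal to 9.41 and 8.50 of 64 genes, where the chromosome had 16 and 6. The median difference in log2 change between a member and the median of its signal group was -0.02, and 37 of the 64 lay below that median. With all probe sets of a gene averaged instead of the brightest taken, the difference was 0.0014, so its sign is not settled.

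The falls were unevenly spread over the signal range, which is described here without a test, over ranges of groups chosen after the values were seen. In the 5 dimmer groups, 14 of 37 members fell and 2 rose (37.8% and 5.41%), against 10.8% and 7.30% of genes of the arms. In the 5 brighter groups 2 of 27 fell and 4 rose (7.41% and 14.8%), against 21.2% and 21.8%. Signal groups 3 to 5, with mean signals of 4.82 to 7.20, held 20 members, of which 13 fell. These include ey, dpr7, Pur-alpha, mav, Ekar and Actbeta. Within these groups 9.73% to 20.3% of genes of the arms fell. The members' median log2 change was -0.28, -0.49 and -0.33 in the 3 groups, with 8, 3 and 9 members. When probe sets at or below the median signal of 6.33 were left out before the fit, 36 members remained, of which 9 fell and 8 rose. That is 25.0% and 22.2%, close to the 24.9% and 25.6% of all genes left in that fit. By these counts the lean to falls was not seen among the 36 members above 6.33 in that fit. That cut keeps part of signal group 5, with ey, Pur-alpha and Ekar, which the split into dimmer and brighter groups counts as dimmer. The median difference in log2 change from genes of like signal was -0.046 there, more negative than the -0.019 of the main fit.

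**Figure D4:**
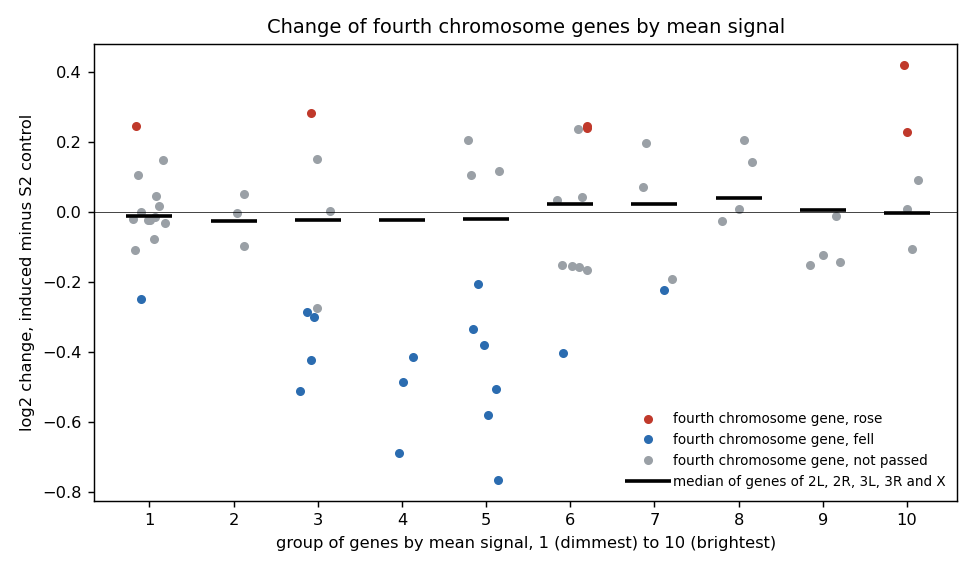
Log2 change of each measured gene of the fourth chromosome against its group by mean signal, from 1 (dimmest) to 10 (brightest), with small sideways shifts so that points can be told apart. Black bars mark the median of genes of the arms 2L, 2R, 3L, 3R and X in the same group. Of the 16 falls, 13 lie in groups 3 to 5.

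Across single arrays the median deviation of the chromosome's genes was small. The median over the 64 genes of an array's deviation from the gene's own mean was 0.03, 0.07 and -0.02 on the S2 control arrays and -0.01, -0.03 and -0.06 on the induced arrays. S2 control replicate 3 thus lay below induced replicate 1, and the groups overlapped. On the same scale the genes of the arms stood between -0.01 and 0.01 on all 6 arrays. The median signal of the 64 genes did part the groups. It was 6.72, 6.84 and 6.87 on the S2 control arrays and 6.51, 6.51 and 6.45 on the induced arrays. These medians lie in the range of signal groups 3 to 5, where most of the falls were found.

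Genes for proteins that mark or bind the fourth chromosome were followed next, in a list that also holds HP1b, HP1c and partners of HP1a. Whether the listed proteins act on the genes described here was not tested. Of 13 listed genes, which lie on other chromosomes, 10 were measured, and 5 rose, 1 fell and 4 did not pass, against the same background of 14.5% and 16.0%. That background includes dim genes, while all 10 lay above the median signal. Of the genes of the arms in the 5 brighter signal groups, 21.8% rose and 21.2% fell. Windei (wde), the cofactor of Setdb1, rose most, from 8.88 ± 0.069 to 9.46 ± 0.054 (n = 3 each; log2 change 0.58, SE 0.06, adjusted p = 6.084e-05 in limma). The genes egg, Su(var)3-9 and G9a, which encode the histone methyltransferases of the list, were not analysed here. The HP1a gene rose by 0.18 (SE 0.05, adjusted p = 0.0301 in limma), from 12.25 ± 0.044 to 12.43 ± 0.043. Its call was lost without S2 control replicate 1 (0.0940), induced replicate 2 (0.0937) or induced replicate 3 (0.115). Pof fell by 0.18 (SE 0.06, adjusted p = 0.0466 in limma), from 7.85 ± 0.060 to 7.68 ± 0.063. Its probe set is of a kind that can share sequence with other transcripts, and the setting without such probe sets did not measure it. The arrays of Pof did not overlap between groups, but its call was lost without S2 control replicate 1 (0.0806), S2 control replicate 3 (0.145), induced replicate 1 (0.129) or induced replicate 3 (0.154). It was also lost when arrays were centred on their medians (0.0552), with trended robust moderation (0.0548) and with the replicate number as a block (0.0889).

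Of the other HP1 genes, HP1c rose by 0.34 (SE 0.07, adjusted p = 0.00377 in limma) and HP1b by 0.20 (SE 0.06, adjusted p = 0.0329 in limma). The call of HP1b was lost without S2 control replicate 1 (0.105), S2 control replicate 3 (0.0575), induced replicate 1 (0.0580), induced replicate 2 (0.121) or induced replicate 3 (0.0724). Of the genes for partners of HP1a, HP4 rose by 0.25 (SE 0.05, adjusted p = 0.00601 in limma). Su(var)3-7 at 0.20 (adjusted p = 0.0551 in limma) and HP5 at 0.15 (adjusted p = 0.0527) did not pass, although their arrays did not overlap between groups. Both lay near the threshold. Su(var)3-7 passed in limma with array weights (adjusted p = 0.0468), without dim probe sets (0.0276), after a second quantile normalisation (0.0485), with trended robust moderation (0.0318), without S2 control replicate 1 (0.0498) and without induced replicate 1 (0.0422). HP5 passed in limma without dim probe sets (adjusted p = 0.0181), with the mean of probe sets (0.0464) and with trended robust moderation (0.0381). Its log2 change of 0.15 was the same in each of these fits as in the main one. Su(var)2-HP2 stood at -0.08 and did not pass, but without induced replicate 1 it stood at -0.18 and passed (adjusted p = 0.0494 in limma). ADD1 stood at -0.03.

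**Figure D5:**
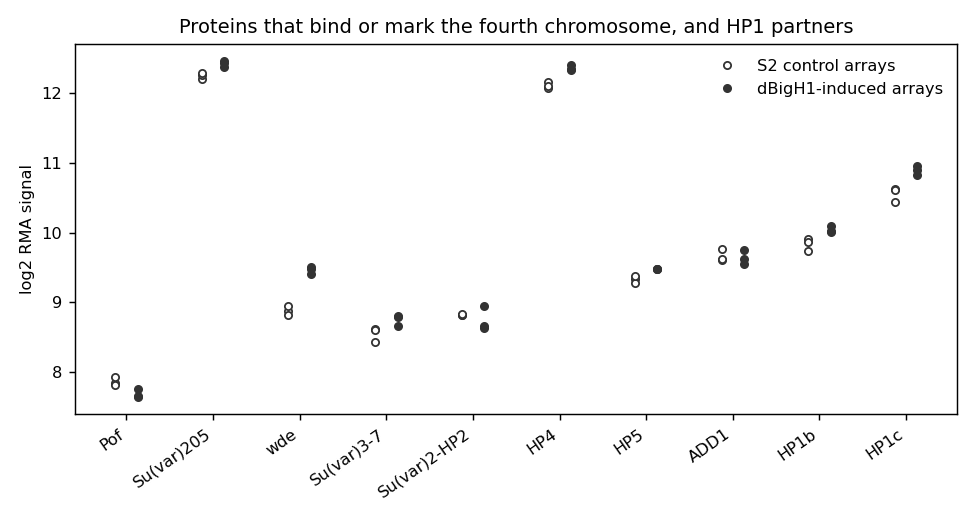
Log2 signal on each array for the 10 measured genes whose proteins bind or mark the fourth chromosome, are other HP1 proteins or partner HP1a. S2 control arrays are open circles and dBigH1-induced arrays are filled circles (n = 3 each). The widest gap between groups is that of wde, and Pof is the gene that fell.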

How the data were processed

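Total RNA of 6 samples (25 ng each) was amplified, labelled and hybridised to Affymetrix arrays, per the labels' protocols. The authors deposited log2 values, 1 per probe set, which the submitters' processing notes credit to RMA (background correction, normalisation between arrays, summary of probes). No version or filter is stated there. RMA makes arrays alike in distribution. A shift shared by every transcript is therefore lost, and dim signals are compressed. Array medians were 6.31 to 6.33, and Pearson's r across probe sets was 0.998 to 0.999 within groups and 0.993 between them. Precision is limited by the number of arrays. The spread behind each p-value is that between these samples, which may be technical replicates.

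Of 18952 probe sets, 183 platform controls were left out. The platform annotation gave 1 gene for 13647 probe sets and several for 402; the rest are unnamed here. Symbols of 13544 were updated through RefSeq's gene table (Release 6). A gene was represented by its brightest 1-gene probe set over all arrays. Induced minus S2 control was fitted in R 4.3.3 with limma 3.58.1 (lmFit, eBayes, group as the only term, two-sided, Benjamini-Hochberg over 18769 probe sets, threshold 0.05), and every adjusted p comes from such a fit. "Rose" and "fell" mark what passed. The fit was tested on simulated data. An exact permutation test of 3 against 3 cannot go below p = 0.1 and was not used.

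The members and lists were chosen with earlier results of these data known, so lists are described by counts and medians without a test. The rule named among members that passed the 12 with the largest rise and the 12 with the largest fall, the passing members of the role lists, the 3 brightest members, members with probe sets passing in opposite directions (0 found), BigH1 and the proteins that bind the fourth chromosome. A search of promoters for motifs was planned and was not run, because no sequence was used here. Same-numbered samples of the groups had deviations from their group means that correlated at 0.04, -0.10 and 0.01, so the numbers were not taken to pair the samples. The other settings were array weights, centring, the replicate block, trended robust moderation, a second quantile normalisation, a filter on dim probe sets, each array left out, the mean over probe sets of each gene, no probe sets of the s and x kind, and 5 signal groups.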

Additional observations from a re-analysis of the deposited data

How the results depend on the processing

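Over 15 settings besides the main one, the number of members that fell was 11 to 20 with 1 array left out and 9 without dim probe sets, where 36 genes remained; fewer genes tested is part of that setting. The number that rose was 3 to 7 with 1 array left out. With the replicate block 8 rose and 16 fell, and among the named genes mGluR and Pof lost their calls. The median log2 change was -0.054 to -0.023 with 1 array left out, and the median difference from genes of like signal was -0.048 to -0.016. Without dim probe sets that difference was -0.046. Of the 22 genes that passed, 12 passed in every setting that measured them and 10 lost the call in at least 1. These are CG1674, CG1909, CG31999, RhoGAP102A, Sox102F, Zip102B, dati, fd102C, mGluR and toy; the cause was not tested. With the mean of probe sets, RhoGAP102A stood at -0.24, dati at -0.02, toy at 0.06 and CG1674 at 0.06, since their probe sets differ. These are the passing genes with several probe sets, and each lost its call in that setting. Each of the 12 has 1 probe set, so that setting could not change its log2 change and is no check on it. Signs turned for genes that did not pass. Rnf11 read -0.037 to 0.071 with 1 array left out, below 0 without S2 control replicate 1 (-0.0075), S2 control replicate 3 (-0.037) or induced replicate 1 (-0.0051). PMCA read 0.091 with the mean of probe sets and 0.053 without s and x probe sets, through its other probe sets. ADD1 read -0.084 to 0.021 with 1 array left out, above 0 without S2 control replicate 1 (0.021) or induced replicate 2 (0.016), and 0.061 with the mean of probe sets. Dim signal limits what could be seen for the 28 members at or below the median signal.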
